A study of Mus musculus with 12 samples.

Results

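The genes of lipogenesis, the pathway by which the liver turns surplus carbohydrate into fatty acids and stored fat, were followed through the response of mouse liver to lipopolysaccharide (LPS). They are 9 genes chosen by name: the transcription factor genes Mlxipl and Srebf1, the substrate-supplying enzymes Acly and Me1, the fatty acid synthesis enzymes Acaca and Fasn, the modifying enzymes Elovl6 and Scd1, and Gpam, which starts glycerolipid assembly. Each gene was matched by its symbol to the probe annotation, and all 9 were found among the 19938 genes measured. The study asks how a substitution in p65, the NF-kB subunit that Rela encodes, affects the response to LPS, a cell wall component of Gram-negative bacteria. RNA of 12 livers from male mice was hybridised to whole-transcript oligonucleotide arrays, with 4 livers in each of 3 groups.

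The first group was wild-type (WT) C57Bl6/J mice left untreated. The second was WT mice given LPS at 1 µg/kg, and the third was S534A mice given the same dose. All mice are labelled as C57Bl/6 in background, and all were kept on a regular light-dark cycle with free access to chow. S534A mice carry a knock-in allele that puts alanine in the place of a serine of p65 (S534A) through a changed codon in exon 10. The allele was targeted in PTL1 embryonic stem cells, and 2 targeted clones gave the chimeras. Its selection cassette was removed with FLPe, and 5 generations of backcrossing to C57Bl6/J came before homozygous mice were bred. The substitution is in the germline, so every cell type carries it. No untreated S534A liver was analysed here, so a genotype difference that preceded LPS and one in the response to it cannot be told apart. How long after LPS the livers were taken is not stated in the labels. Titles of the untreated arrays follow a different pattern from those of the LPS arrays, so a batch that coincides with treatment and LPS itself cannot be told apart.

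In hepatocytes, insulin acts through the SREBP-1c product of Srebf1, and glucose through ChREBP, the product of Mlxipl, to raise transcription of the lipogenic enzymes. Citrate exported from mitochondria is split by Acly to acetyl-CoA, which Acaca carboxylates to malonyl-CoA, and Fasn uses both, with NADPH that Me1 helps to supply, to build palmitate. Elovl6 lengthens palmitate, Scd1 inserts a double bond, and Gpam joins the fatty acids to glycerol 3-phosphate on the way to triglyceride and phospholipid.

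The sequences upstream of these genes are shown because both regulators are themselves members, and their products bind DNA near lipogenic genes. RefSeq promoter windows of GRCm38.p6 were found for 8 of the 9 members, in 13 windows, and the 250 bases before each start were searched. The letters searched on both strands were CCAAT (the box bound by NF-Y, a partner of SREBP), CACGTG and CATGTG (E-boxes), TCACCC (a core of sterol-response elements) and GGGCGG (the GC box). Motifs and printed windows were chosen with the sequences in view. They are printed 5′ to 3′ on the gene's strand, and capitals mark every match, so that ATTGG is CCAAT on the opposite strand. The windows shown are those of Gpam and Srebf1, which fell most after LPS, of Mlxipl, the other regulator, of Fasn, the central enzyme, and of Elovl6, which rose. Where a gene has several windows, the printed one holds the most kinds of match. The Gpam window lies at chr19:55127239-55127488 on the minus strand, that of Srebf1 at chr11:60210472-60210721 (minus), that of Fasn at chr11:120824548-120824797 (minus), that of Mlxipl at chr5:135089640-135089889 (plus) and that of Elovl6 at chr3:129532136-129532385 (plus).
Gpam: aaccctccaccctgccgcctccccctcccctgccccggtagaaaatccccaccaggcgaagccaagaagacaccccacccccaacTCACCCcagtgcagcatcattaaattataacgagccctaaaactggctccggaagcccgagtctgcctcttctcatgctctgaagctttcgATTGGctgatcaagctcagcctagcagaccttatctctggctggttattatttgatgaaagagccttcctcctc
Srebf1: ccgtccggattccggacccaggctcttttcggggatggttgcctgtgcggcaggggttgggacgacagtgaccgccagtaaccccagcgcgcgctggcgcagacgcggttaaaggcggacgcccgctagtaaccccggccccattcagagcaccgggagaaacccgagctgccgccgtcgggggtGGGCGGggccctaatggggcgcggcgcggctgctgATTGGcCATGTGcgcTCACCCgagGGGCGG
Fasn: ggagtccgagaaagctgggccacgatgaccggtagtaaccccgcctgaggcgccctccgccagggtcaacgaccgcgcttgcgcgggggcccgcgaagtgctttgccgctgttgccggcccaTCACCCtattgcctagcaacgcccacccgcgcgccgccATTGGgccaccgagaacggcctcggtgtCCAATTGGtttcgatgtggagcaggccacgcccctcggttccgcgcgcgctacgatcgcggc
Mlxipl: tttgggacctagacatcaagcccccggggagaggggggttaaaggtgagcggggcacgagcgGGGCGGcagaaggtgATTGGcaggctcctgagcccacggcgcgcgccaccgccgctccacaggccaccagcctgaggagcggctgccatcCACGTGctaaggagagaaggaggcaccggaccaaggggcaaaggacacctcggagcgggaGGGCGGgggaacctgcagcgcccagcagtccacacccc
Elovl6: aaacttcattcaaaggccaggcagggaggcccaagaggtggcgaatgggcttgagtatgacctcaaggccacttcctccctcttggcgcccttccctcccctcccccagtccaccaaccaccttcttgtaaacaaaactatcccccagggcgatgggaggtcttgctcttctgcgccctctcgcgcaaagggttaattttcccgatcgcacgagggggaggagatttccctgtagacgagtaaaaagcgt

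The printed Srebf1 window packed a CCAAT box at 30 to 26 bases before the start, CATGTG at 24 to 19, TCACCC at 15 to 10 and a GC box at 6 to 1. In the Fasn window CCAAT occurred at 90 to 86, 62 to 58 and 59 to 55 bases before the start, the last 2 overlapping on opposite strands as CCAATTGG, and TCACCC at 128 to 123. The printed Gpam window held CCAAT at 74 to 70 and TCACCC at 165 to 160, and the Mlxipl window held CACGTG at 98 to 93. None of the 5 letter strings occurred in the Elovl6 window, which says only that these letters are not in those 250 bases. Of the 13 windows of members, 6 had CCAAT, 6 GGGCGG, 4 TCACCC, 2 CATGTG and 1 CACGTG. For scale, CCAAT occurs in 33.8% of the 32851 windows of that table, GGGCGG in 32.7%, TCACCC in 13.8%, CATGTG in 12.3% and CACGTG in 6.02%. A match is a description of letters and not a measured binding site.

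The deposited values are log2 probe set signals, so a difference of 1 is a 2-fold change, and levels of different genes are not compared because each probe set has its own scale. Values over the whole table ran from 3.43 to 14.48, with array medians from 6.15 to 6.32 and correlations within groups from 0.983 to 0.996. With 4 arrays a group, the number of arrays limits the precision. The labels do not state that each liver came from a separate animal, so p-values measure only how these samples vary, which may be technical. Rela itself had means of 9.96 ± 0.14 in untreated, 11.11 ± 0.08 in WT LPS and 11.20 ± 0.06 in S534A LPS livers (SD, n = 4). A codon change leaves the transcript in place, so this does not check the allele. Clock transcripts and transcripts of exocrine pancreas stood apart on some arrays, and their values are given beside the results they touch.

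In WT liver, LPS was accompanied by lower transcript levels for most of the pathway. Of the 9 genes, 6 fell (Gpam, Srebf1, Acly, Me1, Mlxipl and Scd1), 1 rose (Elovl6), and Acaca and Fasn did not pass the test, which was limma with Benjamini-Hochberg adjustment over all genes, called under 0.05. The background share of all genes called lower was 15.6%, and that called higher was 9.34%, or 25% in either direction. Among the 9969 genes above the median mean level, which include all 9, these shares were 28.6% lower and 15.8% higher. The median difference of the 9 genes was -0.51 on the log2 scale, beside 0.02 over all genes. Complete separation, with every WT LPS array below every untreated array, was seen for 4 genes (Gpam, Mlxipl, Srebf1 and Scd1), where 14.9% of all genes showed it, and none was fully above, where 9.78% of all genes were. In bulk tissue, fewer cells of a type and less RNA per cell cannot be told apart. On 3 arrays, replicate 3 of each LPS group and WT LPS replicate 2, pancreas transcripts were present, and without them 3 of the 9 genes were called lower (Gpam, Mlxipl and Srebf1) and 0 higher, while 8.75% of all genes were called lower.

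**Figure D1:**
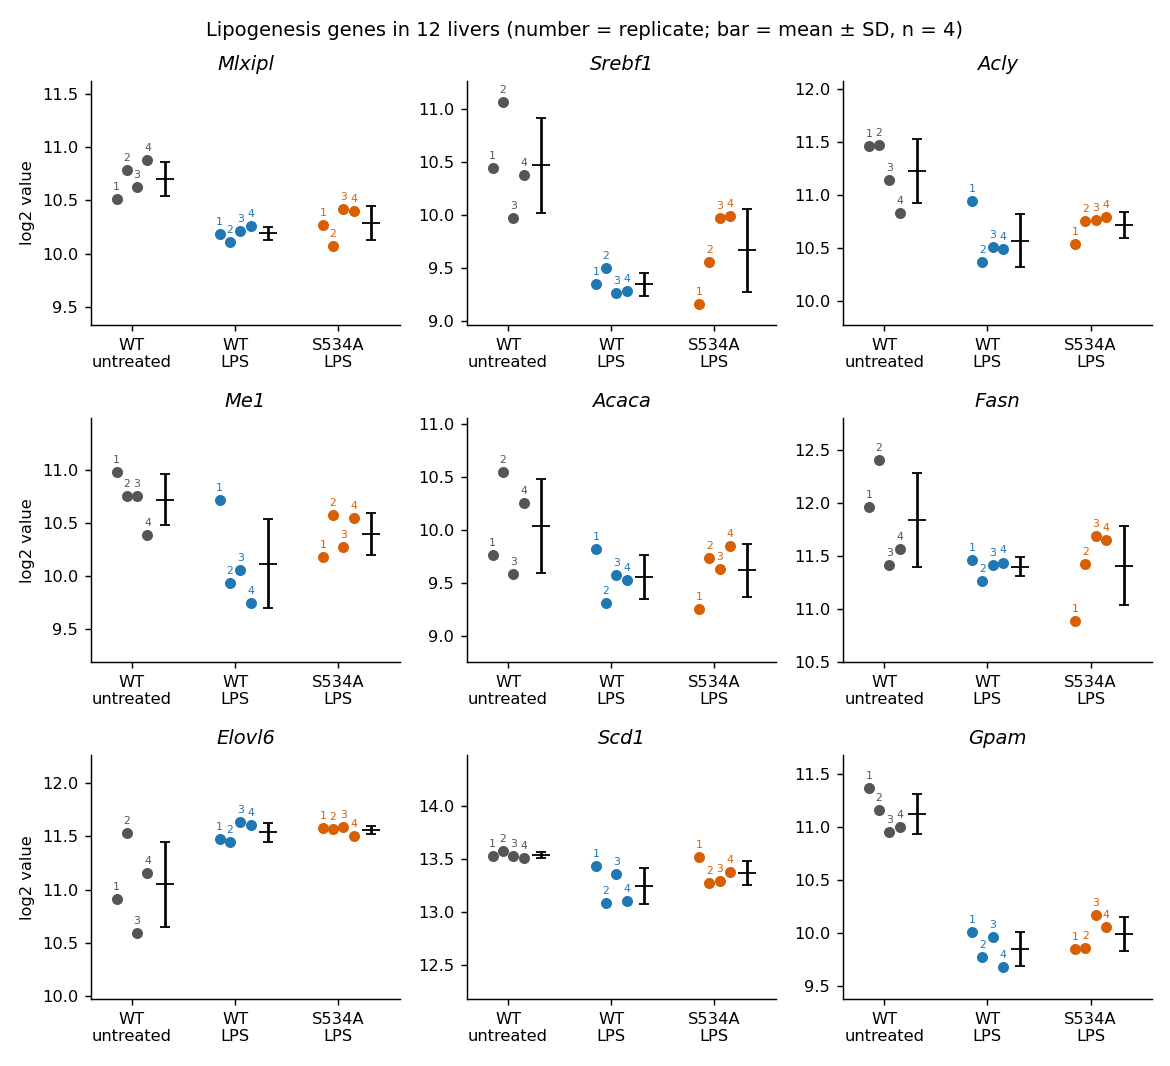
The log2 value of each of the 9 lipogenesis genes (vertical axis, the same span in every panel) is plotted for the 12 livers, grouped as WT untreated, WT LPS and S534A LPS, with replicate numbers beside the points and a black bar for the mean ± SD (n = 4). Gpam, Mlxipl, Srebf1 and Scd1 show every WT LPS point below every untreated point, and Elovl6 is the 1 gene whose LPS means lie above the untreated mean.

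Among the transcription factors, Srebf1 fell the most. Srebf1 (probe set 10386473) read 10.45, 11.07, 9.97 and 10.38 on untreated replicates 1 to 4, and 9.35, 9.50, 9.27 and 9.29 on WT LPS replicates 1 to 4. The highest WT LPS array was below the lowest untreated array, and the untreated arrays were spread more widely. The difference was -1.11 ± 0.22 (log2, SE), a 2.16-fold lower signal (limma adjusted p = 0.00202). On S534A LPS replicates 1 to 4 Srebf1 read 9.16, 9.56, 9.97 and 9.99, and the 2 highest of these reached the level of untreated replicate 3. Against untreated WT livers, the S534A LPS difference was -0.80 ± 0.22 (limma adjusted p = 0.0139).

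Mlxipl (probe set 10526277) encodes ChREBP, the glucose-responsive factor. Its values were 10.51, 10.79, 10.63 and 10.88 on the untreated arrays, 10.18, 10.11, 10.21 and 10.26 on the WT LPS arrays, and 10.27, 10.07, 10.42 and 10.40 on the S534A LPS arrays. All 8 LPS arrays lay below all 4 untreated arrays. The WT difference was -0.51 ± 0.09, or 1.43-fold lower (limma adjusted p = 0.00132), and that of S534A LPS livers against the same untreated arrays was -0.41 ± 0.09 (limma adjusted p = 0.00494). Its group means were 10.70 ± 0.16, 10.19 ± 0.06 and 10.29 ± 0.16 (SD, n = 4).

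Acly (probe set 10391146), ATP citrate lyase, makes the cytosolic acetyl-CoA. It read 11.46, 11.47, 11.14 and 10.83 on untreated, 10.94, 10.37, 10.51 and 10.49 on WT LPS, and 10.54, 10.76, 10.77 and 10.79 on S534A LPS replicates 1 to 4. WT LPS replicate 1 overlapped the lowest untreated array, and the other 3 were below it. The WT difference was -0.65 ± 0.15, or 1.57-fold lower (limma adjusted p = 0.00607). It was -0.51 without the arrays with pancreas transcripts, where it was not called (limma adjusted p = 0.107). All S534A LPS arrays were below the untreated arrays, at -0.51 ± 0.15 (limma adjusted p = 0.0217).

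Me1 (probe set 10595480), cytosolic malic enzyme, generates NADPH. Its values were 10.98, 10.76, 10.76 and 10.39 on untreated, 10.72, 9.94, 10.06 and 9.75 on WT LPS, and 10.18, 10.58, 10.28 and 10.55 on S534A LPS arrays. WT LPS replicate 1 stood well above the other 3 WT LPS arrays and within the untreated range. The WT difference was -0.61 ± 0.19, or 1.52-fold lower (limma adjusted p = 0.0319), and a further probe set of the gene gave -0.60 ± 0.19 (limma adjusted p = 0.0318). The call depended on single arrays: limma's adjusted p was 0.0843, 0.0656 and 0.0636 without untreated replicates 1, 2 and 3, and 0.0787, 0.0708 and 0.0983 without WT LPS replicates 2, 3 and 4. The S534A LPS difference from untreated was -0.32 ± 0.19 and was not called (limma adjusted p = 0.241). On the further probe set it was -0.42 ± 0.19, also not called (limma adjusted p = 0.117).

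The enzymes that build the chain, Acaca and Fasn, had lower means after LPS but were not called. Acaca (probe set 10394538), acetyl-CoA carboxylase 1, read 9.77, 10.55, 9.59 and 10.26 on untreated, 9.82, 9.31, 9.58 and 9.53 on WT LPS, and 9.26, 9.74, 9.63 and 9.85 on S534A LPS arrays. Untreated replicates 2 and 4 were above every LPS array, whereas replicates 1 and 3 lay among them. The WT difference was -0.48 ± 0.20 (limma adjusted p = 0.0961) and the S534A LPS difference from untreated was -0.42 ± 0.20 (limma adjusted p = 0.139). Without untreated replicate 3 the gene was called in both, at -0.63 (limma adjusted p = 0.0289) and -0.57 (limma adjusted p = 0.0407). A further probe set of the gene was called in neither over all arrays, at -0.42 ± 0.25 (limma adjusted p = 0.243) and -0.43 ± 0.25 (limma adjusted p = 0.241).

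Fasn (probe set 10393970), fatty acid synthase, read 11.96, 12.41, 11.42 and 11.57 on untreated replicates 1 to 4. WT LPS replicates 1 to 4 read 11.46, 11.27, 11.42 and 11.44, and S534A LPS replicates 1 to 4 read 10.89, 11.43, 11.69 and 11.65. The LPS arrays overlapped untreated replicates 3 and 4, and S534A LPS replicate 1 was the lowest of the 12 arrays. The differences from untreated were -0.44 ± 0.21 in WT (limma adjusted p = 0.148) and -0.43 ± 0.21 in S534A (limma adjusted p = 0.158).

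Elovl6 (probe set 10495993), the elongase acting on palmitate, moved the opposite way. Its values were 10.91, 11.53, 10.59 and 11.16 on untreated, 11.48, 11.45, 11.64 and 11.61 on WT LPS, and 11.58, 11.57, 11.59 and 11.50 on S534A LPS arrays. The 8 LPS arrays were close together, and of the untreated arrays replicate 2 alone reached their range. The WT difference was 0.50 ± 0.15, or 1.41-fold higher (limma adjusted p = 0.0266), and the S534A LPS difference from untreated was 0.51 ± 0.15, or 1.43-fold higher (limma adjusted p = 0.0211). In WT, limma's adjusted p was 0.0664 and 0.0535 without untreated replicates 1 and 3 and 0.0667 and 0.0664 without WT LPS replicates 3 and 4. In S534A it was 0.0557 without untreated replicate 1 and 0.0507 without S534A LPS replicate 1.

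Scd1 (probe set 10467979), stearoyl-CoA desaturase 1, read 13.53, 13.58, 13.53 and 13.51 on untreated, 13.44, 13.09, 13.36 and 13.11 on WT LPS, and 13.52, 13.28, 13.30 and 13.38 on S534A LPS arrays. These are close to the top of the deposited scale, and whether the signal is compressed there was not tested. All WT LPS arrays were below the untreated ones, with a difference of -0.29 ± 0.08, or 1.22-fold lower (limma adjusted p = 0.0227). The call was lost without untreated replicate 2 (limma adjusted p = 0.0552) and without WT LPS replicate 2 (0.0574) or 4 (0.0735). In S534A LPS livers, replicate 1 lay within the untreated range and the difference of -0.17 ± 0.08 was not called (limma adjusted p = 0.169).

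Gpam showed the largest difference of the 9 genes in both comparisons with untreated livers. Gpam (probe set 10468533), the mitochondrial glycerol-3-phosphate acyltransferase, read 11.37, 11.16, 10.95 and 11.00 on untreated, 10.01, 9.77, 9.96 and 9.68 on WT LPS, and 9.85, 9.86, 10.17 and 10.06 on S534A LPS arrays. All 8 LPS arrays were below all 4 untreated arrays, with a wide gap. The WT difference was -1.27 ± 0.11, or 2.41-fold lower (limma adjusted p = 3.02e-06), and the S534A LPS difference from untreated was -1.14 ± 0.11, or 2.2-fold lower (limma adjusted p = 6.15e-06). Its group means were 11.12 ± 0.19, 9.85 ± 0.16 and 9.99 ± 0.16 (SD, n = 4).

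**Figure D2:**
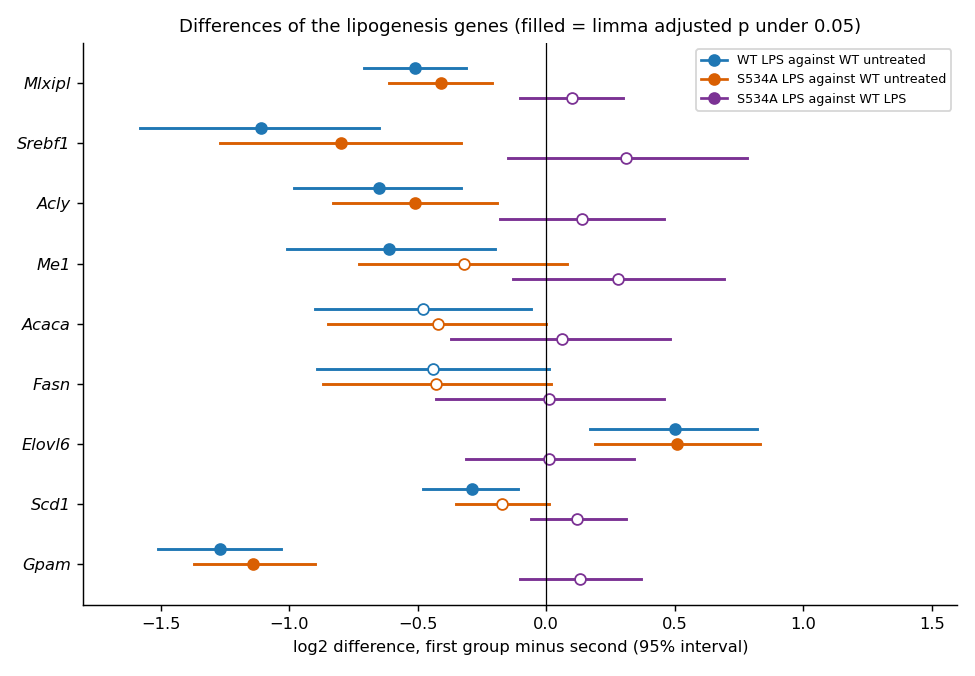
The log2 difference of each gene (points, with 95% intervals from limma) is plotted for WT LPS and S534A LPS against the same untreated arrays and for S534A LPS against WT LPS, with filled points for genes called at an adjusted p under 0.05. Gpam lies farthest to the left at -1.27 and -1.14, Elovl6 is to the right at 0.50 and 0.51, and every interval of the genotype comparison includes 0.

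Across S534A LPS livers against untreated WT livers, 4 of the 9 genes fell (Gpam, Srebf1, Acly and Mlxipl) and 1 rose (Elovl6). All genes called lower were 16% of the total and those called higher 11%, which makes 26.9% in either direction. Among the genes above the median mean level, 28.7% were called lower and 17.8% higher. The median difference of the 9 was -0.42 on the log2 scale, beside 0.03 over all genes. For 3 genes (Gpam, Mlxipl and Acly) every S534A LPS array lay below every untreated array, which held for 17.5% of all genes. This comparison uses the same untreated arrays as the WT comparison, and it holds genotype and LPS together. Acly was not called without untreated replicate 1 (limma adjusted p = 0.0632) or 2 (0.0663), or without S534A LPS replicate 1 (0.0683). Scd1 and Me1 were called in WT and not here, and their own test between the LPS-treated genotypes, given next, did not pass either.

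Between the genotypes after LPS, none of the 9 genes was called by limma, 0 had an unadjusted p under 0.05, and the smallest adjusted p was 1. Among all genes, 0.171% were called in either direction, 0.166% higher and 0.00502% lower in S534A. None of the 9 had groups that did not overlap, where 3.25% of all genes were fully above and 1.18% fully below in S534A. All 9 differences were above 0, with a median of 0.12 on the log2 scale beside 0.01 over all genes. The intervals bound what the arrays leave possible. For Srebf1, with the highest difference at 0.31, the 95% interval ran from -0.15 to 0.78, and for Me1, at 0.28, from -0.13 to 0.69. The further probe set of Me1 gave a smaller difference, 0.17 ± 0.19 (SE). Gpam differed by 0.13 (-0.10 to 0.37) and Mlxipl by 0.10 (-0.10 to 0.30). Acly, the acetyl-CoA source, differed by 0.14 (-0.18 to 0.46) and Scd1 by 0.12 (-0.06 to 0.31). For Acaca the difference was 0.06 (-0.37 to 0.48), for Fasn 0.01 (-0.43 to 0.46) and for Elovl6 0.01 (-0.31 to 0.34). The upper ends for Acaca, Fasn, Scd1 and Me1 are about as large as, or larger than, the sizes of their LPS differences in WT. Those were -0.48, -0.44, -0.29 and -0.61, so a genotype difference of that size lies within or at the edge of these intervals. Without the 3 arrays with pancreas transcripts, the differences of Acly (-0.02), Fasn (-0.13) and Acaca (-0.06) were below 0, so the shared sign did not hold for those 3 genes.

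Within each group, certain arrays were highest or lowest for most, but not all, of the 9 genes. Untreated replicate 2 was the highest of its group for 6 of them (Srebf1, Acly, Fasn, Scd1, Acaca and Elovl6), and untreated replicate 3 the lowest for 5. Among WT LPS arrays, replicate 1 was highest for 6 and replicate 2, an array with pancreas transcripts, lowest for 6. Of the other arrays with such transcripts, S534A LPS replicate 3 was highest of its group for 4 and WT LPS replicate 3 for 1. S534A LPS replicate 1 was the lowest of its group for 6 genes (Gpam, Srebf1, Acly, Fasn, Acaca and Me1). Over all 12 arrays Gpam varied most, with an SD of 0.61, followed by Srebf1 at 0.58 and Me1 at 0.38, and Scd1 varied least at 0.17.

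Several clock transcripts, but not all, separated the untreated livers. Dbp, a clock output factor, read 8.14, 11.19, 7.59 and 11.39 on untreated replicates 1 to 4, and Arntl, which encodes the core activator BMAL1, read 9.03, 6.29, 9.08 and 6.20. Replicates 2 and 4 thus had high Dbp and low Arntl, and replicates 1 and 3 the reverse. The clock genes Nr1d1 (11.63, 10.79, 10.62 and 11.71) and Cry1 (7.56, 7.52, 7.14 and 7.39) did not split the untreated replicates that way. On the LPS arrays Dbp lay between its levels in those pairs, at 8.80 to 9.47 in WT and 8.36 to 9.39 in S534A. Arntl ran from 7.37 to 8.83 and from 7.42 to 8.61. Not all of the 14 measured clock genes lay between. Per3 read 6.09 to 6.46 on WT LPS arrays, near the 6.50 and 6.37 of untreated replicates 1 and 3. Cry1, at 6.71 to 6.89 in WT LPS, was below the untreated 7.14 to 7.56. Nfil3, at 9.15 to 9.79 in WT LPS, was above the untreated 7.61 to 9.04. For 3 of the 9 genes (Mlxipl, Acaca and Elovl6) untreated replicates 2 and 4 were both above replicates 1 and 3. Without untreated replicates 2 and 4, the WT difference of Elovl6 was 0.79 (limma adjusted p = 1.27e-04), that of Acaca -0.12 (0.729) and that of Gpam -1.31 (5.10e-05), and in S534A LPS livers Srebf1 (-0.54, 0.0974) and Mlxipl (-0.28, 0.0667) were no longer called. Without replicates 1 and 3, the WT difference of Elovl6 was 0.20 (limma adjusted p = 0.166), that of Acaca -0.84 (0.00409) and that of Gpam -1.23 (3.04e-05). Gpam, Srebf1, Mlxipl and Acly were called lower in WT either way, Acly at -0.73 (limma adjusted p = 0.00487) and -0.57 (0.0398). Scd1 was called in neither (limma adjusted p = 0.0952 and 0.0728), and Me1 was lost without replicates 1 and 3 (-0.46, 0.168). In S534A LPS livers, without replicates 1 and 3, Acly (-0.43, limma adjusted p = 0.102) and Elovl6 (0.21, 0.138) were not called and Acaca was (-0.78, 0.00549). The part of the clock in these values was not tested.

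**Figure D3:**
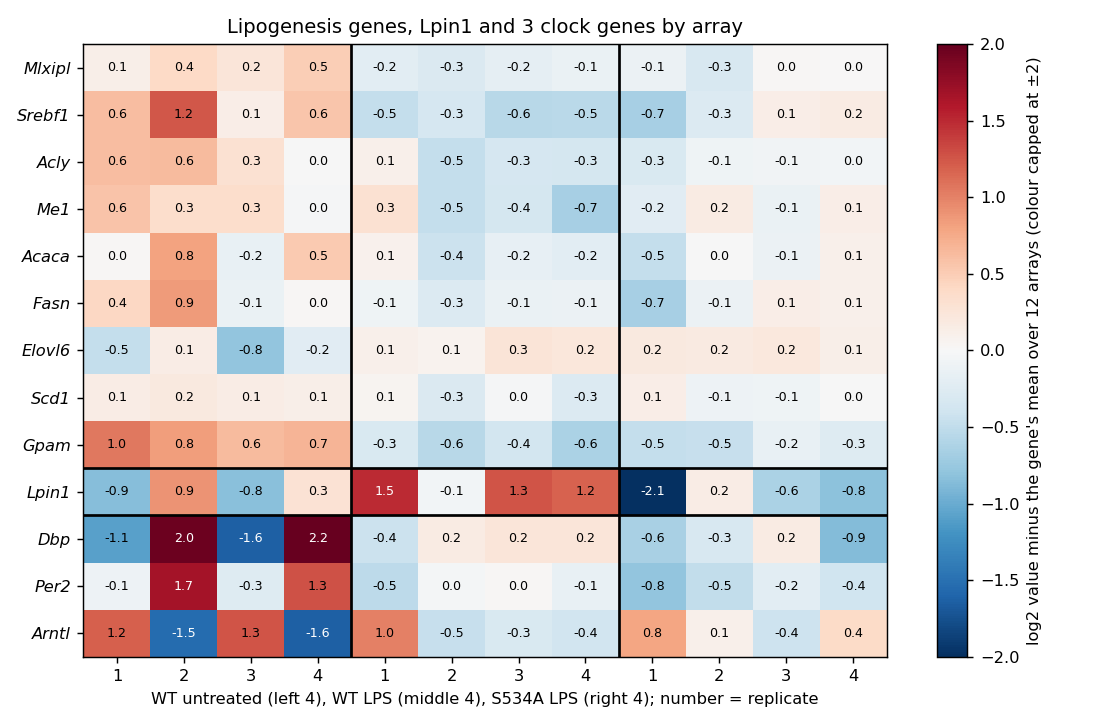
Each cell gives the log2 value of a gene on 1 array minus the gene's mean over the 12 arrays (colour capped at ±2), for the 9 lipogenesis genes, Lpin1 and the clock genes Dbp, Per2 and Arntl, with untreated arrays on the left, WT LPS in the middle and S534A LPS on the right. Untreated replicates 2 and 4 have high Dbp and Per2 and low Arntl, while Gpam is high on all 4 untreated arrays and low on all 8 LPS arrays.

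Cell type markers were read beside these results. The 10 hepatocyte markers averaged 13.45 to 13.53 on the untreated arrays, 13.38 to 13.45 on the WT LPS arrays and 13.37 to 13.42 on the S534A LPS arrays, and in WT 4 of the 10 were called lower and 1 higher. Adipocytes also express lipogenic genes. Their 7 measured markers averaged 7.24 to 7.37, 7.14 to 7.41 and 7.14 to 7.39 in the 3 groups, and 6 of the 7 were called in neither comparison with untreated livers. These include the defining Adipoq, at 5.35 to 5.98 over the 12 arrays, and Lep, at 5.11 to 5.43, as well as Fabp4, at 7.49 to 8.14. The 1 exception was Car3, which hepatocytes also express, and which fell by 0.19 ± 0.06 in WT (limma adjusted p = 0.0426) and by 0.27 ± 0.06 in S534A LPS livers (0.00692). The 15 measured exocrine pancreas markers averaged 5.64 to 5.98 on untreated arrays but 5.92 to 8.11 and 5.93 to 9.09 on WT and S534A LPS arrays. Cpa1, for example, read 10.10 on WT LPS replicate 2, 7.54 on WT LPS replicate 3 and 10.76 on S534A LPS replicate 3, and 5.54 to 6.39 on the other 9 arrays. The 9 neutrophil markers averaged 5.48 to 5.62, 6.75 to 7.04 and 7.17 to 7.45, with 7 of 9 called higher in WT LPS livers and 2 of 9 higher in S534A than in WT LPS livers. The 9 Kupffer cell and monocyte markers averaged 7.94 to 8.18, 7.90 to 8.47 and 8.14 to 8.35, but these averages hold opposite changes, with 4 of 9 higher and 3 lower in either LPS group than in untreated livers. In WT Vsig4 (-1.25), Clec4f (-0.76) and Cd5l (-0.73) fell, and Plac8 (1.62), Marco (1.40), F13a1 (1.10) and Ccr2 (0.56) rose. Timd4, with means of 7.64 in untreated and 7.99 in WT LPS livers, and Adgre1, at 8.80 and 8.68, were not called. Beside these marker counts, 15.6% of all genes were called lower and 9.34% higher in WT LPS than in untreated livers. Among genes above the median mean level these WT shares were 28.6% and 15.8%. In S534A LPS against untreated livers 16% of all genes were lower and 11% higher. Between the genotypes after LPS, 0.166% of all genes were higher in S534A. The part of cell composition in the lower lipogenic transcripts was not tested.

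Upstream of the 9 genes, the 21 measured regulators of lipogenesis changed in both directions in WT liver, with 7 lower and 3 higher by limma and a median of -0.13. Beside these counts, 15.6% of all genes were lower and 9.34% higher. Of genes above the median mean level, 28.6% were lower and 15.8% higher. The insulin receptor substrate Irs1 fell by 2.04 ± 0.11 on the log2 scale (limma adjusted p = 2.98e-08), from 8.63 to 9.16 on untreated arrays to 6.71 to 7.00 on WT LPS arrays, which do not overlap. Scap, which escorts SREBPs out of the endoplasmic reticulum, fell by 0.53 ± 0.07, and Insig1, which retains them there, fell by 0.87 ± 0.13. Ppargc1b, a coactivator of SREBP, fell by 1.03 ± 0.15. Mlxip, encoding the ChREBP relative MondoA, rose by 0.82 ± 0.11, with all WT LPS arrays above the untreated ones, and Usf1, an E-box factor, rose by 0.43 ± 0.09. The insulin receptor gene Insr rose by 0.41 ± 0.12 (limma adjusted p = 0.0196), a call lost without untreated replicate 3 (0.0543) or WT LPS replicate 4 (0.0511). It was also lost without the arrays with pancreas transcripts (0.131), in a fit of the 2 groups alone (0.0627), and without untreated replicates 1 and 3, where the difference was 0.17 (0.0965). In S534A LPS livers 10 of the 21 were lower and 4 higher than in untreated livers.

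Of 14 measured genes that supply glycolytic carbon, acetyl-CoA and NADPH, 4 were lower and 1 higher in WT LPS livers, with a median of -0.19. The shares were 15.6% lower and 9.34% higher over all genes, and 28.6% and 15.8% above the median mean level. Cs, citrate synthase, fell by 0.42 ± 0.07 and Slc25a1, the mitochondrial citrate exporter, by 0.22 ± 0.05 (limma adjusted p = 3.91e-04 and 0.00596). The NADPH-producing Idh1 (-0.22) and Pgd (0.42) and the acetate-activating Acss2 (-0.43) had limma adjusted p of 0.0383, 0.0409 and 0.0474, and these calls depended on single arrays. That of Acss2 was kept in 1 omission alone, that of WT LPS replicate 1, and over the 12 omissions its adjusted p reached 0.128. Idh1 was kept without untreated replicate 2, WT LPS replicate 1 or S534A LPS replicate 1 or 3, and reached 0.0893 in the others. Pgd was kept without untreated replicate 1 or 3 or WT LPS replicate 2 or 3, and reached 0.111 in the others. Without the arrays with pancreas transcripts 1 of the 14 was called lower and 0 higher. In S534A LPS livers 5 were lower and 1 higher than in untreated livers.

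Among 16 measured genes for activation, elongation and desaturation of fatty acids, 8 were lower and 0 higher in WT LPS livers, with a median of -0.21. Over all genes 15.6% were lower and 9.34% higher, and above the median mean level 28.6% and 15.8%. Scd2, a desaturase related to Scd1, fell by 1.10 ± 0.11 (limma adjusted p = 8.57e-06), from 7.16 to 7.45 on untreated arrays to 5.96 to 6.42 on WT LPS arrays. The desaturases of polyunsaturated fatty acids fell too, Fads1 by 0.37 ± 0.06 and Fads2 by 0.44 ± 0.08, and Aacs, which activates acetoacetate for lipid synthesis, fell by 0.88 ± 0.20. Without the arrays with pancreas transcripts 3 of the 16 were called lower, and in S534A LPS livers 7 were lower and 0 higher than in untreated livers.

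The 24 genes of triglyceride synthesis and lipid droplets had 7 lower and 1 higher in WT LPS livers, with a median of -0.09. Background shares were 15.6% lower and 9.34% higher over all genes, and 28.6% and 15.8% above the median mean level. This list also holds relatives of Gpam and lipases, and the lipase gene Mgll (-0.61, limma adjusted p = 0.0143) was among the lower genes. Agpat2 and Agpat3, which add the next acyl chain after Gpam, fell by 0.60 ± 0.11 and 0.25 ± 0.06, and Cideb, a lipid droplet protein, by 0.25 ± 0.05. G0s2, an inhibitor of the triglyceride lipase ATGL, fell by 1.62 ± 0.27 (limma adjusted p = 7.00e-04), from 8.44 to 10.03 on untreated arrays to 7.63 to 7.91 on WT LPS arrays. Plin2, a lipid droplet coat protein, rose by 0.30 ± 0.07 (limma adjusted p = 0.00798). Without the arrays with pancreas transcripts 3 of the 24 were called lower and 0 higher. In S534A LPS livers 7 were lower and 1 higher than in untreated livers.

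Genes of the fasting response, which runs opposite to lipogenesis, were mixed, with 2 of 10 higher and 2 lower in WT LPS livers. Angptl4, an inhibitor of lipoprotein lipase, rose by 1.07 ± 0.25 and Pck1, of gluconeogenesis, by 0.50 ± 0.14. Without untreated replicates 1 and 3, the pair with low Dbp, neither was called, Angptl4 at 0.64 (limma adjusted p = 0.0504) and Pck1 at 0.20 (0.0951). Cyp4a10, a PPAR-alpha target, fell by 0.63 ± 0.12 and Ppargc1a, a coactivator of gluconeogenesis, by 1.00 ± 0.21. Without the arrays with pancreas transcripts 1 of the 10 was called lower and 0 higher. In S534A LPS livers 1 was lower and 1 higher than in untreated livers, with a median of 0.16 beside -0.17 in WT. The genes of this list and the 4 lists above were chosen by role, but with earlier results of these data known. Their WT counts stand beside the background shares of 15.6% lower and 9.34% higher. For the counts without the arrays with pancreas transcripts these shares were 8.75% and 7.43%, and for S534A LPS against untreated livers 16% and 11%. Among the genes above the median mean level, they were 28.6% and 15.8% in WT and 28.7% and 17.8% in S534A LPS livers.

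**Figure D4:**
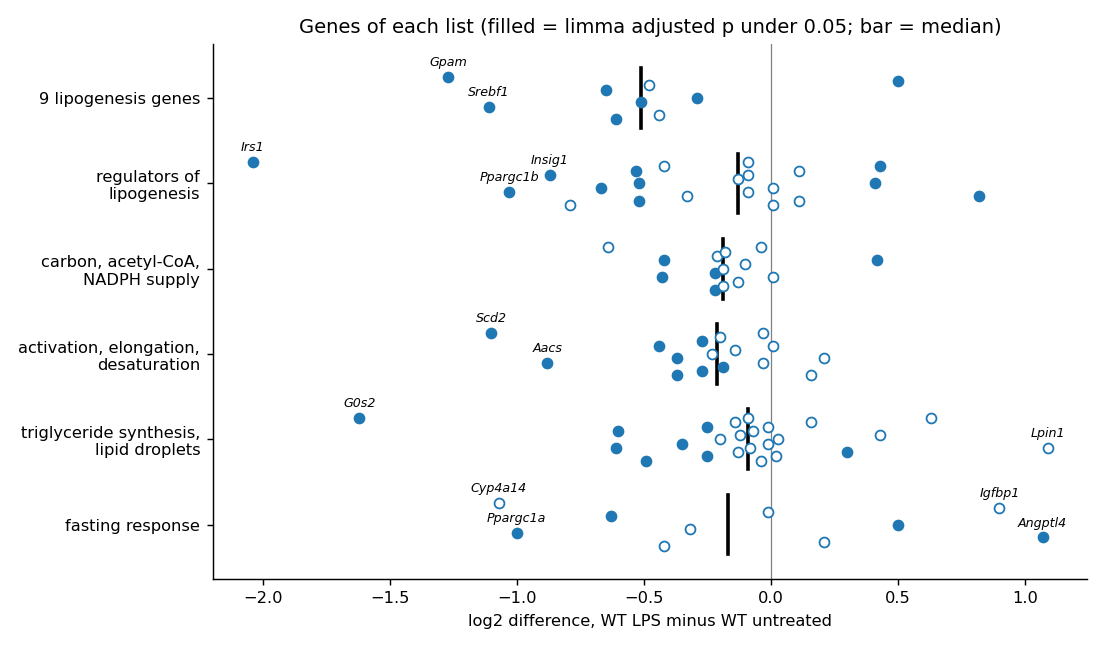
Each point is the log2 difference of a gene between WT LPS and untreated livers, by list (rows), filled where limma's adjusted p is under 0.05, with a bar at the list's median. The 9 lipogenesis genes have a median of -0.51, the other lists have medians from -0.21 to -0.09, and Irs1 at -2.04 and G0s2 at -1.62 lie farthest to the left.

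Between the genotypes after LPS, 0 of the 85 genes of these 5 lists were called by limma, where 0.171% of all genes were called. At an unadjusted p under 0.05, 5 of the 85 were higher in S534A (Scap, Usf1, Pgd, Cyp4a10 and Cyp4a14). In the other direction 5 were lower (Irs1, Lpin1, Rxra, Dgat2 and Angptl4). Over all genes 4.21% were higher and 1.54% lower at that threshold. The largest difference belonged to Lpin1, the phosphatidate phosphatase that makes diacylglycerol. It read 9.49, 11.25, 9.51 and 10.64 on untreated, 11.84, 10.29, 11.60 and 11.52 on WT LPS, and 8.26, 10.50, 9.72 and 9.53 on S534A LPS arrays. WT LPS replicate 2 overlapped the S534A arrays. The difference was -1.81 ± 0.50 and was not called (limma adjusted p = 0.291), and with array weights, which gave WT LPS replicate 2 the lowest weight at 0.22, it was -1.92 (limma adjusted p = 0.0251). The other genes with the smallest p in their lists were Dgat2 (-0.20, limma adjusted p = 0.671), Rxra (-0.24, 0.406), Usf1 (0.24, 0.654), Pgd (0.32, 0.797), Taldo1 (0.12, 1), Elovl5 (0.23, 0.897), Scd2 (-0.20, 0.969), Cyp4a14 (1.33, 0.406) and Cyp4a10 (0.37, 0.424), none of them called. With array weights, under which 1.73% of all genes were called higher and 0.662% lower, Rxra (-0.28, limma adjusted p = 0.0304) and Cyp4a14 (1.45, 0.0436) were called as well.

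The genes closest in profile to the 3 most variable members were found by the root mean square difference of log2 values over the 12 arrays, each gene centred on its own mean. Nearest to Gpam were Fgd4 and Slc36a1, both at 0.12, which read 7.45 to 7.67 and 9.44 to 9.93 on untreated arrays and 6.00 to 6.50 and 8.23 to 8.64 on the 8 LPS arrays. Nearest to Srebf1 were Acaa1b and Fzd8, both at 0.22. Nearest to Me1 were Pparg and Acly, both at 0.17, so that the second was itself a lipogenesis gene. These values describe likeness over arrays that share 3 groups.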

How the data were processed

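Total RNA of 12 mouse livers was labelled and hybridised to Affymetrix whole-transcript arrays, 1 array per sample. The deposited log2 values were made by the authors with RMA, which corrects background, quantile normalises and summarises probes, per the submitters' processing notes. Neither its version nor a genome build is stated in the labels. No further normalisation was applied. Of 35556 probe sets, 21789 carried 1 gene symbol, 1621 several and 12146 none, and the latter kinds were left out. By Entrez identifier, 21698 of the former were found among the genes of GRCm38.p6, and 91 kept their deposited symbol. Where a gene had several probe sets (999 genes), the one with the highest mean over the 12 arrays was kept, leaving 19938 genes. Members and lists were chosen with earlier results of these data known.

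Linear models were fitted to all 12 arrays in limma (version 3.58.1, under R 4.3.3), with moderated two-sided tests on 9 residual and 3.54 prior degrees of freedom. P-values were adjusted by Benjamini-Hochberg over all genes, and genes were called under 0.05. The procedure was tested on simulated data. Differences are given with limma's SE or 95% interval, and means with the SD of 4 arrays. Identical values between arrays were at most 0.0422% of the table, so no array was taken as a copy. The rule for named genes took all 9 members, up to 4 called genes per direction and list in the WT comparison, the 2 smallest p per list between genotypes, and the 2 nearest profiles of the 3 most variable members. Marker and clock genes are named where their level moves with a result. Alternatives left out each array, the arrays with pancreas transcripts or dim genes, averaged probe sets, changed the eBayes settings, weights, scaling, samples in the fit or threshold, or added a replicate block. Leaving out untreated replicates 2 and 4 or 1 and 3, or replicate 1 of both LPS groups, and using the further probe set of Acaca and Me1, were chosen after seeing the data.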

Additional observations from a re-analysis of the deposited data

Results flagged for a closer look

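An array far from the other 3 of its group was seen for 4 of the 123 groups of 4 arrays tested over 41 genes (Dixon's criterion at the 95% level), and chance gives about 1 in 20. Acly read 10.54 on S534A LPS replicate 1, below the 10.76 to 10.79 of the other S534A LPS arrays. The elongase Elovl5 read 12.31 on WT LPS replicate 1, above 11.82 to 11.88 on the others. The lipid droplet protein gene Cideb read 12.64 on WT LPS replicate 1, just below 12.70 to 12.71 on the others. The fatty acid hydroxylase gene Cyp4a14 read 10.43 on untreated replicate 2, below 11.96 to 12.18 on the others.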

How the results depend on the processing

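In WT LPS against untreated livers, Gpam, Mlxipl and Srebf1 were called lower under all 24 alternatives at the 0.05 threshold, Acly under 23 and Scd1 under 18 of 24, Me1 under 16 and Acaca under 2 of 25, and Fasn under 0 of 24. Elovl6 was called higher under 15 of 24. Leaving out 1 array gave 4 to 6 genes lower and 0 to 1 higher; without the arrays with pancreas transcripts 3 were lower. The number higher was 0 without those arrays, after median centring, with only the 2 groups compared, at an adjusted p under 0.01, without untreated replicates 1 and 3, and without replicate 1 of both LPS groups. For S534A LPS against untreated, omissions of 1 array gave 3 to 5 lower and 0 to 1 higher. There, 2 were lower at an adjusted p under 0.01 or without untreated replicates 2 and 4, and 0 were higher without the pancreas-transcript arrays, at an adjusted p under 0.01, without untreated replicates 1 and 3, or without replicate 1 of both LPS groups. Between genotypes 0 members were called under every alternative run. The sign of uncalled genotype differences turned for Acly (-0.02), Fasn (-0.13) and Acaca (-0.06) without the pancreas-transcript arrays, for Elovl6 with array weights (-0.03) and without replicate 1 of both LPS groups (-0.01), for Fasn with repeated quantile normalisation (-0.0033) and for Acaca with its further probe set (-0.0011). Omission of 1 array gave -0.08 to 0.19 for Fasn, -0.03 to 0.18 for Acaca and -0.02 to 0.05 for Elovl6. The cause of these changes was not tested. All-gene counts moved by over 1.5 times between genotypes: 33 higher and 1 lower became 344 and 132 with array weights, 117 and 4 without WT LPS replicate 1, 9 to 21 higher without single other LPS arrays, 1 higher and 0 lower without the pancreas-transcript arrays, 9 and 70 higher at thresholds of 0.01 and 0.1, and 65, 50 and 83 higher without untreated replicates 2 and 4, untreated replicates 1 and 3, and replicate 1 of both LPS groups. Genes lower in WT fell from 3120 to 1745 without the pancreas-transcript arrays and to 1920 at 0.01, where those higher fell from 1863 to 1223 and those lower in S534A against untreated from 3181 to 2096. The genes above the median level numbered 9969. With a replicate block, 6 members were lower and 1 higher in WT, 4 and 1 in S534A against untreated and 0 between genotypes, and 17 genes overall were higher in S534A; same-numbered WT LPS and S534A LPS arrays correlated at 0.06, -0.23, 0.06 and -0.12 and did not pair best with their own number. The deposited table gives no signal over background, so the number of arrays is the limit that can be stated.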
